A study of Mus musculus with 4 samples.

Results

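The genes of the DNA damage kinases and break sensors are 10 mouse genes, *Atm*, *Atr*, *Prkdc*, *Mre11a*, *Rad50*, *Nbn*, *Mdc1*, *Trp53bp1*, *Brca1* and *Rnf8*. They were chosen by name, and each was found in the expression table, so that 10 of 25909 named genes are described. Each gene was represented by its transcript with the longest gene body. All 10 passed the filter of a mean over the libraries of at least 1 RPKM, reads per kilobase of transcript relative to the total of mapped reads.

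RNA of mouse embryonic fibroblasts (MEF) was sequenced in 4 stranded libraries. *Hmga2*+/+ and *Hmga2*-/- MEF, which differ in the gene of the architectural chromatin protein HMGA2, were given water (Ctrl) or human recombinant TGFB1, the cytokine that drives matrix production in fibroblasts, at 10 ng/ml for 24 h, with 1 library per condition. The MEF came from C57BL/6 embryos at embryonic day 15.5, and per the study's methods they were immortalized with simian virus SV40, whose large T antigen is known to bind and inactivate p53. All cells were starved overnight in medium with 1% FCS before treatment, and the sources used here do not say whether each genotype is 1 line or several.

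ATM, ATR and DNA-PK are related protein kinases that are switched on by damaged DNA, ATM and DNA-PK at broken ends and ATR at exposed single strands. The complex of MRE11, RAD50 and NBN holds broken ends and brings ATM to them, and ATM then phosphorylates the histone H2A.X. MDC1 binds that mark, RNF8 adds ubiquitin around it, and 53BP1 and BRCA1 act on opposite sides of the choice between end joining and homologous recombination. The study asked how HMGA2 and phosphorylated H2A.X take part in TGFB1-induced transcription, and the libraries speak to RNA levels, not to kinase activity or phosphorylation.

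The promoters of *Atm*, *Mdc1* and *Trp53bp1* are shown because these genes carry differences described below, *Trp53bp1* and *Mdc1* between TGFB1 and Ctrl and *Atm* between the genotypes with TGFB1. Of the 10 members, 7 were matched to a promoter, and *Prkdc*, *Rad50* and *Nbn* were not. *Atr*, which also differed between TGFB1 and Ctrl, is not shown because all 250 bases before its start lie in annotated exons. Sequences are those of RefSeq on GRCm38.p6, read 5′ to 3′ on the strand of the gene, taken from the 250 bases before the start of the gene and leaving out bases in annotated exons. Capitals mark matches, on either strand, to TTTCCCGC, TTTGGCGC or TTTGGCGG (E2F), CCAAT (the CCAAT box), CCGGAAG (ETS) and GGGCGG (SP1).
Atm, chr9:53536741-53536921, minus strand: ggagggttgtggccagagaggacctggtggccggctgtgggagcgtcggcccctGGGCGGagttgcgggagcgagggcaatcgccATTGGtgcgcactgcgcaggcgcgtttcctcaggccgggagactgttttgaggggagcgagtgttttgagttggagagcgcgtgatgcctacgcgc
Mdc1, chr17:35841248-35841497, plus strand: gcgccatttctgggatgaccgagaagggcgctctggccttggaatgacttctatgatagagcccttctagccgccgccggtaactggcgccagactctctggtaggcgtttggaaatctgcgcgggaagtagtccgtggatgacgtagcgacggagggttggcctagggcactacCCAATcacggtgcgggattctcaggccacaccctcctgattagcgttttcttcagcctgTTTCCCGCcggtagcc
Trp53bp1, chr2:121271408-121271657, minus strand: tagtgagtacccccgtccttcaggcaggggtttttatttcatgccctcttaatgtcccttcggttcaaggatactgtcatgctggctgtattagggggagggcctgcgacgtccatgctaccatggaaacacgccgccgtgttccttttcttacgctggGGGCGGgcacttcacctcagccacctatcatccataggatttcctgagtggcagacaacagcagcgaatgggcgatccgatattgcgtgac

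The *Mdc1* window held an E2F match 16 bases before the start and a CCAAT box 75 bases before it. The *Atm* window held a CCAAT box, read on the other strand, 165 bases before the start and an SP1 match 196 bases before it, and the *Trp53bp1* window held an SP1 match 91 bases before the start. Such matches were not particular to these genes. Those of *Atr*, *Mre11a* and *Rnf8* also held SP1 matches, and those of *Mre11a*, *Brca1* and *Rnf8* held CCAAT boxes. Of 32851 mouse promoters of the same length, 1.73% held the E2F letters, 33.8% CCAAT, 6.91% the ETS letters and 32.7% the SP1 letters. None of the 7 promoters held the SMAD palindrome GTCTAGAC, found in 0.167% of all promoters, or the AP-1 letters TGANTCA, found in 6.75%. A match is a description of the letters only.

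Each library had between 56140000 and 57300000 mapped reads, derived from the steps of the RPKM values, and each value of a member rested on 1106 to 15141 reads. Intervals are exact 95% intervals for counting error only, since no condition has a replicate, so the spread between cultures is unknown and p-values are not given. Reads without molecular identifiers are not independent molecules, and fewer cells of a type and less RNA per cell cannot be told apart in bulk RNA. *Hmga2* was at 14.8 and 40.7 RPKM in the *Hmga2*+/+ Ctrl and TGFB1 libraries and was listed at 0 in both *Hmga2*-/- libraries. The TGFB1 targets *Ctgf* and *Smad7* rose past 1.5-fold in both genotypes. For *Ctgf* the Ctrl and TGFB1 levels were 13.2 and 173 RPKM in *Hmga2*+/+ and 24.9 and 359 RPKM in *Hmga2*-/- MEF, and for *Smad7* 6.40 and 10.6 RPKM in *Hmga2*+/+ and 6.67 and 14.6 RPKM in *Hmga2*-/- MEF. The 8 fibroblast markers summed to 1850 to 2236 RPKM per library. Most of this was *Vim*, at 958 and 1119 RPKM in *Hmga2*+/+ Ctrl and TGFB1 and 1497 and 1390 RPKM in *Hmga2*-/- Ctrl and TGFB1. In *Hmga2*+/+ Ctrl 8 of 8 reached 1 RPKM, and in the other libraries 7 of 8, all but *Lum*. Of the markers of other cell types, the 4 epithelial genes summed to at most 1.04 RPKM, the 3 skeletal muscle genes to at most 0.052 RPKM with *Myod1* and *Myog* at 0, the 3 immune genes to 1.29 to 1.66 RPKM, and the 3 endothelial genes to 1.14 to 7.46 RPKM, nearly all of it *Kdr*, which was higher in both TGFB1 libraries than in both Ctrl libraries.

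**Figure D1:**
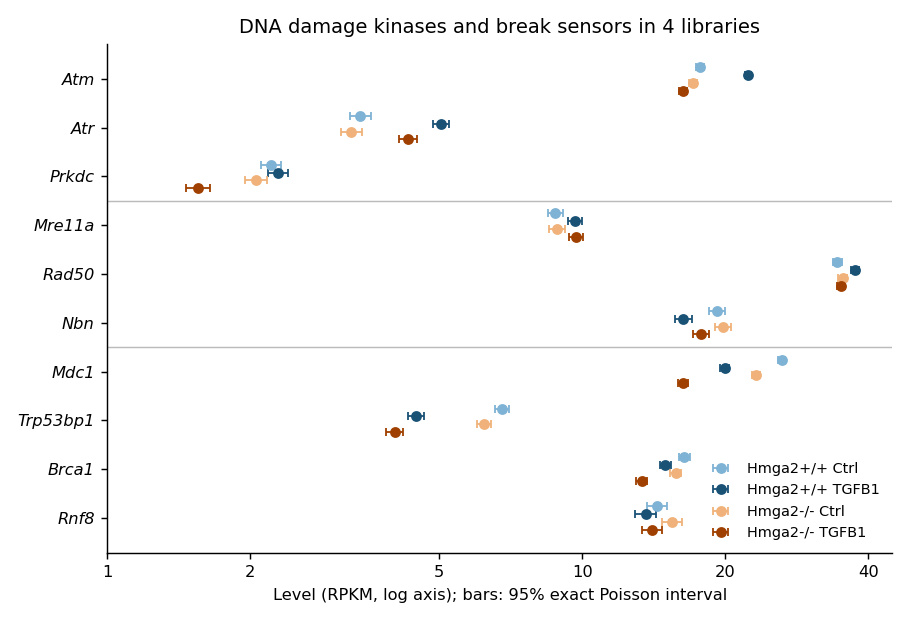
Level of each of the 10 genes (RPKM, log axis) in the 4 libraries, with kinases at the top, the MRE11, RAD50 and NBN complex in the middle and mediators at the bottom. Points are single libraries and bars are exact Poisson 95% intervals for counting error. *Rad50* was the most abundant at 34.4 to 37.5 RPKM and *Prkdc* the least at 1.55 to 2.29 RPKM.

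The 10 genes spanned a wide range of levels in untreated cells. In the *Hmga2*+/+ Ctrl library the order from high to low was *Rad50* at 34.4 RPKM, *Mdc1* at 26.3, *Nbn* at 19.2, *Atm* at 17.7, *Brca1* at 16.4, *Rnf8* at 14.3, *Mre11a* at 8.77, *Trp53bp1* at 6.78, *Atr* at 3.41 and *Prkdc* at 2.21 RPKM. The counting intervals of neighbours in this order did not overlap. *Rad50* stood at percentile 91.3 of the levels of 10788 tested genes in that library and *Prkdc* at percentile 13.6. The kinases were thus unlike in level, with *Atm* at 5.19 times *Atr* per length of transcript in this library.

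Among the kinases, *Atm*, the kinase lost in ataxia telangiectasia, was highest in the *Hmga2*+/+ TGFB1 library. It was at 17.7 RPKM in *Hmga2*+/+ Ctrl, 22.3 in *Hmga2*+/+ TGFB1, 17.1 in *Hmga2*-/- Ctrl and 16.3 RPKM in *Hmga2*-/- TGFB1. The other 3 libraries lay close together below the *Hmga2*+/+ TGFB1 library. The log2 ratio of TGFB1 to Ctrl was 0.34 (interval 0.30 to 0.37) in *Hmga2*+/+ MEF, 1.26-fold, and -0.07 (interval -0.10 to -0.03) in *Hmga2*-/- MEF. Neither ratio reached 1.5-fold, the change at which the study classed genes as TGFB1 inducible in *Hmga2*+/+ MEF. Here it serves as the threshold for rises and falls in every comparison.

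*Atr*, the kinase of replication stress, was higher with TGFB1 in both genotypes. Its levels were 3.41 and 5.04 RPKM in *Hmga2*+/+ Ctrl and TGFB1 and 3.26 and 4.29 RPKM in *Hmga2*-/- Ctrl and TGFB1. Both TGFB1 libraries lay above both Ctrl libraries. The log2 ratio was 0.56 (interval 0.47 to 0.66) in *Hmga2*+/+ MEF, 1.48-fold and just under the threshold, and 0.40 (interval 0.30 to 0.49) in *Hmga2*-/- MEF, 1.32-fold. The 6 annotated transcripts of *Atr* gave log2 ratios of 0.18 to 0.56 in *Hmga2*+/+ and of 0.28 to 0.83 in *Hmga2*-/- MEF. The transcript used here had the largest ratio in *Hmga2*+/+ MEF. *Atr* shares its strand with 1 overlapping annotated gene, and reads in the overlap could count for either.

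*Prkdc*, the catalytic subunit of DNA-PK, was lowest in the *Hmga2*-/- TGFB1 library. It was at 2.21 and 2.29 RPKM in *Hmga2*+/+ Ctrl and TGFB1, and at 2.06 and 1.55 RPKM in *Hmga2*-/- Ctrl and TGFB1. The *Hmga2*-/- TGFB1 library stood below the other 3, whose values lay close together. In *Hmga2*-/- MEF the log2 ratio of TGFB1 to Ctrl was -0.41 (interval -0.52 to -0.29), 1.32-fold lower, against 0.05 (interval -0.05 to 0.15) in *Hmga2*+/+ MEF. *Prkdc* shares its strand with the overlapping annotated gene *Gm49511*, which limits its counts in the same way. The Ku subunits that bring DNA-PK to broken ends were under the threshold, *Xrcc5* with log2 ratios of -0.15 and -0.23 and *Xrcc6* with -0.02 and 0.00 in *Hmga2*+/+ and *Hmga2*-/- MEF.

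The 3 genes of the end-holding complex had ratios close to 1. *Mre11a*, the nuclease, was at 8.77 and 9.66 RPKM in *Hmga2*+/+ Ctrl and TGFB1 and at 8.85 and 9.71 RPKM in *Hmga2*-/- Ctrl and TGFB1, log2 ratios of 0.14 and 0.13. *Rad50*, the ATPase that bridges the ends, was at 34.4, 37.5, 35.3 and 35.1 RPKM in the same order, with the *Hmga2*+/+ TGFB1 library highest. *Nbn*, which carries the docking site for ATM, was at 19.2, 16.3, 19.8 and 17.8 RPKM, lower with TGFB1 in both genotypes, with log2 ratios of -0.24 and -0.15.

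The proportions within the complex followed from these levels. *Mre11a* stood at 0.255 of the *Rad50* level in *Hmga2*+/+ Ctrl, 0.258 in *Hmga2*+/+ TGFB1, 0.251 in *Hmga2*-/- Ctrl and 0.277 in *Hmga2*-/- TGFB1. *Nbn* stood at 0.558 and 0.435 of the *Rad50* level in *Hmga2*+/+ Ctrl and TGFB1 and at 0.561 and 0.507 in *Hmga2*-/- Ctrl and TGFB1. Both TGFB1 libraries thus had less *Nbn* per *Rad50* than both Ctrl libraries. *Rbbp8*, which encodes the partner CtIP that starts end resection with the complex, had log2 ratios of -0.06 and -0.04.

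The 4 mediators all had log2 ratios below 0 with TGFB1 in both genotypes. Of all genes tested, 53.5% were below 0 in *Hmga2*+/+ and 48.6% in *Hmga2*-/- MEF. The counting interval of *Rnf8* in *Hmga2*+/+ MEF, -0.18 to 0.02, spans 0. *Trp53bp1*, which encodes 53BP1, the factor that protects ends from resection, was at 6.78 and 4.46 RPKM in *Hmga2*+/+ Ctrl and TGFB1 and at 6.21 and 4.03 RPKM in *Hmga2*-/- Ctrl and TGFB1. Both TGFB1 libraries lay below both Ctrl libraries, and *Trp53bp1* was the member that fell past 1.5-fold. The log2 ratio was -0.60 (interval -0.68 to -0.53), 1.52-fold lower, in *Hmga2*+/+ MEF and -0.62 (interval -0.70 to -0.55), 1.54-fold lower, in *Hmga2*-/- MEF, and both intervals span the threshold. The 6 annotated transcripts of *Trp53bp1* gave log2 ratios of -0.84 to -0.38 in *Hmga2*+/+ and of -0.75 to -0.45 in *Hmga2*-/- MEF. *Rif1*, an effector that 53BP1 recruits, had log2 ratios of 0.10 and -0.13.

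*Mdc1*, the reader of phosphorylated H2A.X, was at 26.3 and 19.9 RPKM in *Hmga2*+/+ Ctrl and TGFB1 and at 23.2 and 16.3 RPKM in *Hmga2*-/- Ctrl and TGFB1. The order matched that of *Trp53bp1*, with both TGFB1 libraries below both Ctrl libraries. The log2 ratio was -0.40 (interval -0.44 to -0.36) in *Hmga2*+/+ MEF, 1.32-fold lower, and -0.51 (interval -0.55 to -0.46) in *Hmga2*-/- MEF, 1.42-fold lower, both under the threshold. *H2afx*, the gene of H2A.X, was at 28.6, 25.8, 24.3 and 23.9 RPKM in *Hmga2*+/+ Ctrl, *Hmga2*+/+ TGFB1, *Hmga2*-/- Ctrl and *Hmga2*-/- TGFB1, with log2 ratios of -0.15 and -0.02.

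*Brca1*, a ubiquitin ligase and central factor of homologous recombination, was at 16.4, 14.95, 15.7 and 13.3 RPKM in the same order of libraries. The *Hmga2*-/- TGFB1 library was lowest, and the log2 ratios were -0.13 and -0.24. Its ligase partner *Bard1* had log2 ratios of -0.02 and 0.12, and *Palb2*, which ties BRCA1 to BRCA2, had -0.14 and 0.13. *Rnf8*, the ligase that marks chromatin around breaks, was at 14.3, 13.6, 15.4 and 14.0 RPKM, with log2 ratios of -0.08 and -0.14. Its partners *Rnf168*, with 0.06 and -0.06, and the conjugating enzyme *Ube2n*, with 0.13 and 0.25, were also under the threshold. *Rnf8* overlaps 2 annotated genes on its own strand, so its counts could hold their reads.

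**Figure D2:**
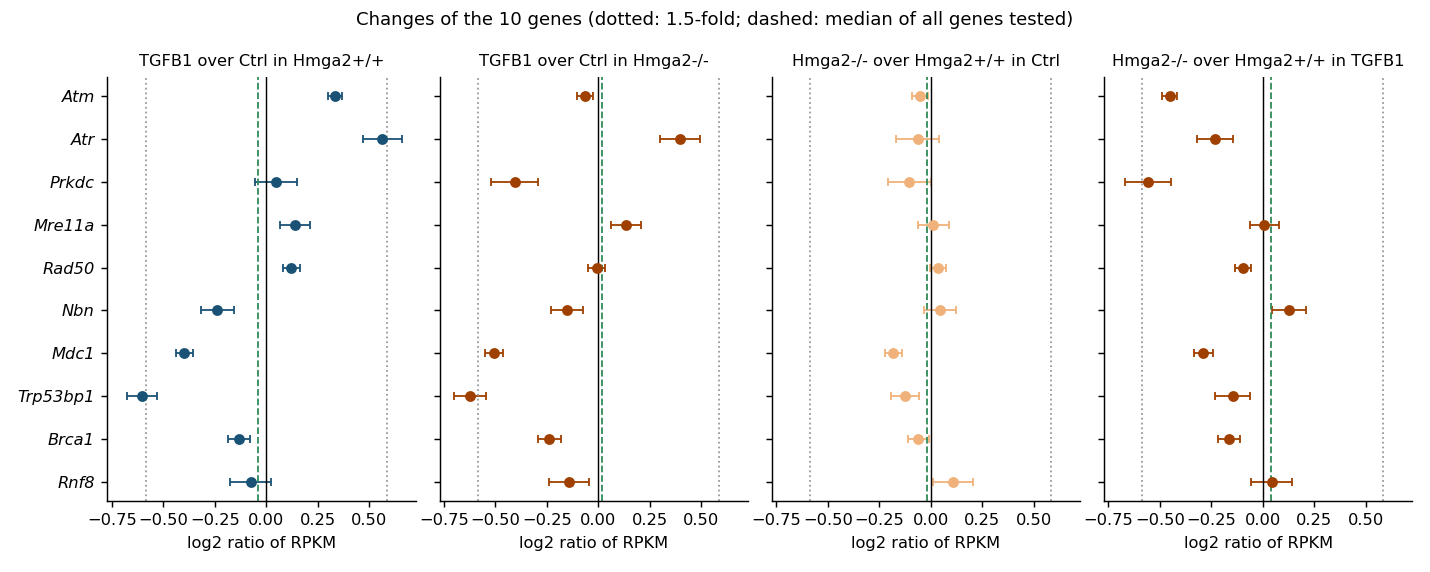
Log2 ratio of RPKM of each of the 10 genes in the 4 comparisons, each between 1 library and 1 library. Points are ratios, bars exact 95% intervals for counting error, dotted lines the 1.5-fold threshold and dashed lines the median of 10788 genes. *Trp53bp1* lies past the lower threshold in both TGFB1 comparisons, at -0.60 and -0.62, and no gene passes in a genotype comparison.

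Counted over the 10 members, TGFB1 gave 0 genes past 1.5-fold higher and 1 gene, *Trp53bp1*, past 1.5-fold lower in *Hmga2*+/+ MEF. Of all 10788 genes tested, 11.6% were past 1.5-fold higher and 15.9% lower in that comparison. In *Hmga2*-/- MEF the members' counts were likewise 0 higher and 1 lower, beside 13.4% higher and 14.2% lower of all genes. The members' count of calls is thus near or under the background. The median log2 ratio of the members was -0.01 in *Hmga2*+/+ and -0.15 in *Hmga2*-/- MEF, against -0.04 and 0.02 over all genes. The call of *Trp53bp1* is lost in both genotypes with 1 RPKM added to every value, at -0.51 and -0.52, and with its transcript of highest RPKM, at -0.52 and -0.58. With libraries rescaled by their median ratio, *Trp53bp1* was at -0.57 in *Hmga2*+/+ MEF, short of the threshold, and *Atr* was at 0.60, past it.

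Markers of dividing cells were read beside these counts. The 12 proliferation markers summed to 666 and 577 RPKM in *Hmga2*+/+ Ctrl and TGFB1 and to 644 and 581 RPKM in *Hmga2*-/- Ctrl and TGFB1. Without *Mki67*, left out after the values were seen, the other 11 summed to 509 and 455 RPKM in *Hmga2*+/+ Ctrl and TGFB1 and to 478 RPKM in both *Hmga2*-/- libraries, so that in *Hmga2*-/- MEF the lower sum with TGFB1 rests on *Mki67*. In *Hmga2*+/+ MEF 9 of 12 had a log2 ratio below 0 with TGFB1, with a median of -0.20, and 1, *Tk1*, fell past 1.5-fold. In *Hmga2*-/- MEF 6 of 12 were below 0, with a median of -0.02, where *Mki67* and *Tk1* fell past 1.5-fold and *Rrm2* rose past it. Of all genes tested, 53.5% were below 0 in *Hmga2*+/+ and 48.6% in *Hmga2*-/- MEF. Past 1.5-fold, 15.9% fell and 11.6% rose in *Hmga2*+/+ MEF, and 14.2% fell and 13.4% rose in *Hmga2*-/- MEF. The part of the proliferation markers in the levels of the members was not tested.

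The genotypes were then compared without and with TGFB1. In Ctrl, 0 members passed 1.5-fold in either direction, beside 2.23% of all genes higher and 1.93% lower in *Hmga2*-/- MEF. The members' log2 ratios of *Hmga2*-/- to *Hmga2*+/+ in Ctrl ran from -0.18 for *Mdc1* to 0.11 for *Rnf8*, with a median of -0.06 against -0.02 over all genes. By the transcripts used here, the basal levels of these genes thus differed by at most 1.13-fold between the genotypes. Other annotated transcripts differed more. The ratio ran from -0.68 to -0.06 over those of *Atr*, where the lowest rested on 76 reads in *Hmga2*+/+ and 48 in *Hmga2*-/- Ctrl. It ran from -0.29 to -0.06 over those of *Trp53bp1*.

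With TGFB1, 0 members passed 1.5-fold in either direction, beside 3.01% of all genes higher and 1.96% lower. *Prkdc* was nearest, with a log2 ratio of *Hmga2*-/- to *Hmga2*+/+ of -0.56 (interval -0.67 to -0.45), 1.47-fold lower, and it was at -0.59, past the threshold, after rescaling of the libraries. *Atm* followed at -0.45 (interval -0.49 to -0.42), 1.37-fold lower, then *Mdc1* at -0.29 and *Atr* at -0.23. By the transcripts used here, the 3 kinases were thus lower in the *Hmga2*-/- TGFB1 library than in the *Hmga2*+/+ TGFB1 library, each by less than the threshold. Over all annotated transcripts the log2 ratio ran from -0.73 to -0.48 for *Prkdc*, past the threshold at its lowest. It ran from -0.454 to -0.448 for *Atm* and from -0.37 to 0.005 for *Atr*. The median over the members was -0.16, against 0.04 over all genes.

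**Figure D3:**
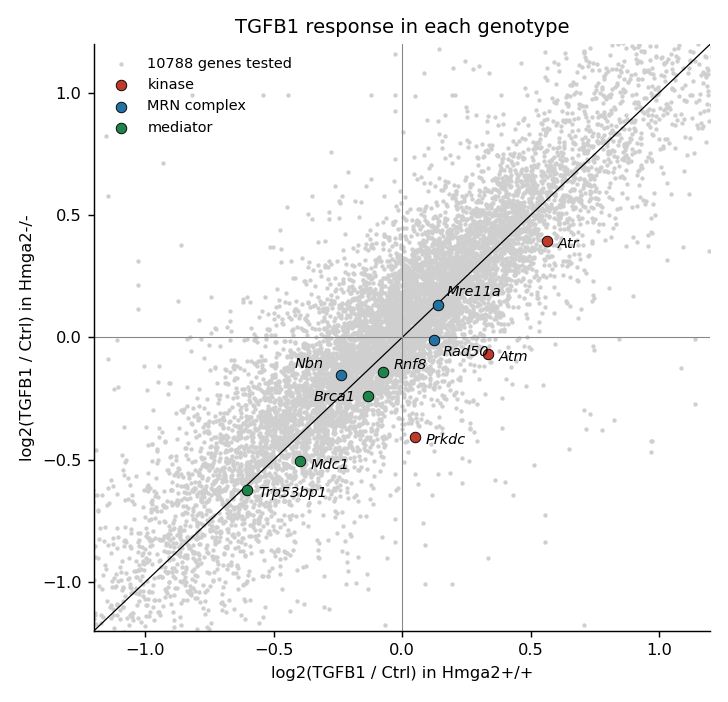
Log2 ratio of TGFB1 to Ctrl in *Hmga2*+/+ MEF (horizontal axis) and in *Hmga2*-/- MEF (vertical axis), with 10788 genes in gray, the 10 members in colour and the diagonal marking equal ratios. The axes leave out genes with larger changes. *Atm* and *Prkdc* lie farthest below the diagonal among the members, at 0.34 and -0.07 and at 0.05 and -0.41.

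The same libraries give the difference between the TGFB1 responses, the log2 ratio in *Hmga2*-/- minus that in *Hmga2*+/+ MEF, which is a restatement of the 4 levels and not further evidence. It was -0.45 (interval -0.60 to -0.30) for *Prkdc* and -0.40 (interval -0.45 to -0.35) for *Atm*, and -0.17 (interval -0.30 to -0.03) for *Atr*. Over the annotated transcripts, examined after the values were seen, the difference was below 0 in 3 of 3 for *Atm* (-0.50 to -0.40) and in 3 of 3 for *Prkdc* (-0.64 to -0.43), but above 0 in 4 of 6 for *Atr* (-0.17 to 0.30), so that the sign for *Atr* depends on the transcript. Over all genes tested *Prkdc* stood at percentile 2.9 and *Atm* at percentile 3.7 of this difference. For the other members it lay between -0.13 for *Rad50* and 0.08 for *Nbn*, and 9 of 10 members were below 0, beside 40.5% of all genes, whose median was 0.05. Some of these signs are within counting error. The interval spans 0 for *Mre11a* (-0.11 to 0.10), *Trp53bp1* (-0.13 to 0.09) and *Rnf8* (-0.20 to 0.07), and for *Nbn* (-0.03 to 0.20), the member above 0. Of the members, 5 belong to the long transcripts described next, most of which were below 0.

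Long transcripts shared this direction. The 712 tested genes with an exonic length of at least 7000 bases had a median difference of -0.12, and 73.3% of them were below 0. The median was 0.06 for genes under 1500 bases, 0.07 from 1500 to 3000 bases and 0.05 from 3000 to 5000 bases. From 5000 to 7000 bases, the class of *Mre11a*, *Rad50* and *Brca1*, the median was 0.007 and 48.3% were below 0. *Prkdc*, with 12503 bases, and *Atm*, with 11837 bases, belong to the long class, as do *Trp53bp1*, *Atr* and *Mdc1*. Within that class *Prkdc* stood at percentile 5.8 and *Atm* at percentile 8.4. Relative to the median of the class the difference was -0.33 for *Prkdc* and -0.28 for *Atm*, and it was -0.05 for *Atr*, 0.01 for *Mdc1* and 0.10 for *Trp53bp1*. The part of transcript length in the values of *Atm* and *Prkdc* was not tested further.

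**Figure D4:**
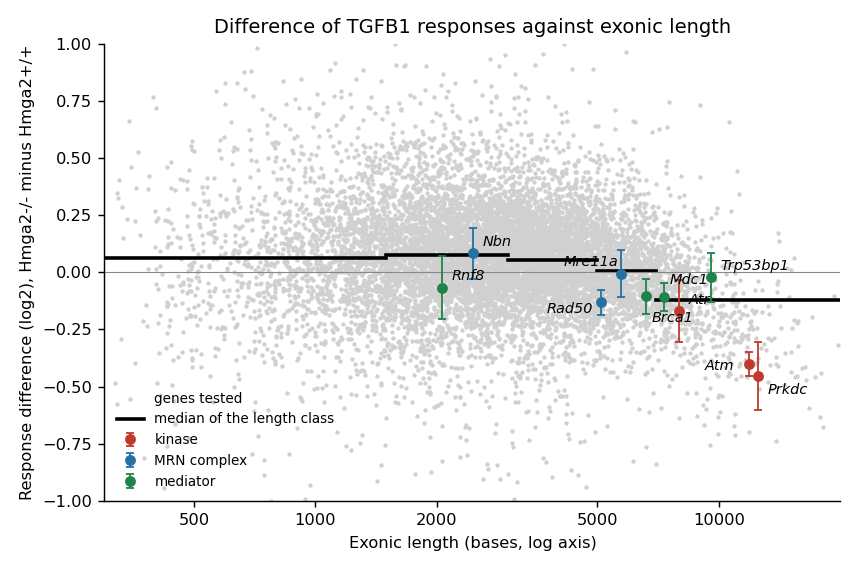
Difference of the TGFB1 responses (log2, *Hmga2*-/- minus *Hmga2*+/+) against exonic length in bases (log axis), with tested genes in gray, black lines for the median of each length class and the 10 members in colour with 95% intervals for counting error. The axes leave out genes with larger differences. The class from 7000 bases has a median of -0.12, and *Prkdc* at -0.45 and *Atm* at -0.40 lie below it.

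The kinases and sensors were read beside 70 other genes of the DNA damage response, all named and tested. In *Hmga2*+/+ MEF 2 of 70 rose and 4 fell past 1.5-fold with TGFB1, shares well under the 11.6% and 15.9% of all genes. The genes that rose were *Rnf4*, a ligase of sumoylated proteins, at a log2 ratio of 0.60, and the phosphatase subunit *Ppp2ca* at 0.59. The genes that fell were the polymerase *Polm* at -0.85, the homologous recombination genes *Xrcc3* at -0.73 and *Rad51c* at -0.69, and the checkpoint kinase *Chek2*, a target of ATM, at -0.59.

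In *Hmga2*-/- MEF 1 of the 70 rose with TGFB1, *Rnf4* at 0.78, and 3 fell, *Rad51c* at -0.88, *Polm* at -0.66 and *Rad51b* at -0.65, again well under the 13.4% and 14.2% of all genes. Between the genotypes 0 of 70 passed in Ctrl, where 2.23% and 1.93% of all genes were higher and lower, and 1 passed with TGFB1, where 3.01% and 1.96% were, the end-joining factor *Nhej1*, higher in *Hmga2*-/- MEF at 0.73 with levels of 1.25 and 2.08 RPKM. *Polm*, *Xrcc3*, *Rad51b* and *Nhej1* were at 2.12 RPKM or less in every library. The medians over the 70 genes were -0.06 and -0.03 with TGFB1 in *Hmga2*+/+ and *Hmga2*-/- MEF and -0.05 and 0.02 for the genotypes in Ctrl and TGFB1.

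None of the 13 genes of ATR activation passed 1.5-fold, with log2 ratios of -0.54 to 0.32 with TGFB1 in *Hmga2*+/+ and of -0.41 to 0.57 in *Hmga2*-/- MEF and medians of -0.09 and 0.06. None of the 4 genes of ATM activation passed either, with ratios of -0.25 to 0.14 and of -0.03 to 0.19. Of all genes, 11.6% rose and 15.9% fell past 1.5-fold with TGFB1 in *Hmga2*+/+ MEF. In *Hmga2*-/- MEF 13.4% rose and 14.2% fell. Whether the 13 and 4 genes depart from these shares was not tested. *Atrip*, the binding partner of ATR, had log2 ratios of 0.07 and 0.03 with TGFB1 in *Hmga2*+/+ and *Hmga2*-/- MEF, so that *Atr* went from 0.649 to 0.915 of the *Atrip* level in *Hmga2*+/+ and from 0.634 to 0.815 in *Hmga2*-/- MEF. The ATR activator *Topbp1* had 0.09 and 0.07, and *Kat5*, the acetyltransferase that activates ATM, had -0.04 and 0.19. Of the 70 genes 5 had an exonic length of at least 7000 bases, and in 5 of 5 the difference of responses was below 0, with a median of -0.23. Of all 712 tested genes of that length 73.3% were below 0. The 5 pathway genes were *Herc2*, *Trrap*, *Brca2*, *Rif1* and *Rnf169*, of which all but *Rif1* are named here after their values were seen. Of the 65 shorter genes 24 were below 0, with a median of 0.09. In the shorter classes of all genes tested 35.5% to 48.3% were below 0.

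Of the 10 members 4 start head to head with a protein-coding gene on the other strand, with starts less than 1000 bases apart. *Npat*, a factor of histone gene transcription that starts 307 bases from *Atm*, had log2 ratios of -0.01 and -0.01 with TGFB1 in *Hmga2*+/+ and *Hmga2*-/- MEF, beside 0.34 and -0.07 for *Atm*. *Mcm4*, a subunit of the replicative helicase 466 bases from *Prkdc*, had -0.22 and -0.02, beside 0.05 and -0.41. *Npat* ratios thus lay near 0 in both genotypes, and *Mcm4* was lower with TGFB1 mainly in *Hmga2*+/+ MEF.

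*Ankrd49*, 202 bases from *Mre11a*, rose past the threshold in both genotypes, at 0.80 and 0.75, beside 0.14 and 0.13 for *Mre11a*. These annotated genes overlap on opposite strands, and counting used the annotated strand. *Nbr1*, an autophagy receptor 194 bases from *Brca1*, had -0.36 and -0.43, beside -0.13 and -0.24 for *Brca1*.

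**Figure D5:**
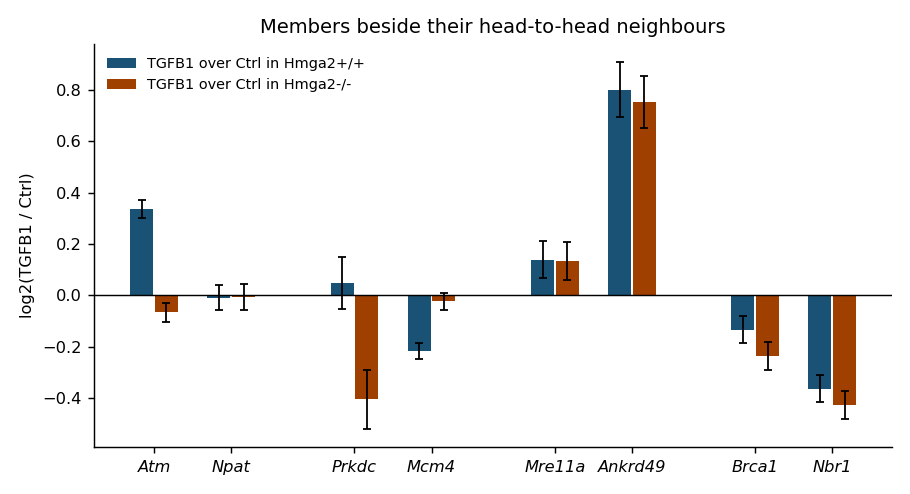
Log2 ratio of TGFB1 to Ctrl for 4 members and their head-to-head neighbours, in *Hmga2*+/+ (blue) and *Hmga2*-/- (brown) MEF. Bars are ratios between single libraries, with exact 95% intervals for counting error. *Npat* lies near 0 in both genotypes beside *Atm* at 0.34 and -0.07, and *Ankrd49* stands at 0.80 and 0.75 beside *Mre11a* at 0.14 and 0.13.

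Likeness over the 4 libraries was measured as the Euclidean distance of log2 RPKM centred per gene. The genes nearest to *Atm* were *N4bp3* at 0.057, *Sft2d1* at 0.062 and the long noncoding RNA *Xist* at 0.069, and *Xist* was at 40.7, 51.6, 41.6 and 38.9 RPKM in *Hmga2*+/+ Ctrl, *Hmga2*+/+ TGFB1, *Hmga2*-/- Ctrl and *Hmga2*-/- TGFB1. The genes nearest to *Brca1* were *Lin52* at 0.016, *Cklf* at 0.020 and *Angel2* at 0.028. With 4 points for each gene and 10788 genes to choose from, such distances describe these libraries alone.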

How the data were processed

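The authors trimmed reads with Trimmomatic, mapped them with HISAT2 2.1.0 to mm10 and deposited RPKM made with HOMER over UCSC known genes, counted on the annotated strand. Exons are the counted feature in the file's header, and genes in the study's methods. The table also gives the transcript length in bases, and 1 column per condition. The study speaks of duplicates of an experiment, and whether these were pooled is not given in the sources used here.

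A transcript took the symbol of the GENCODE vM21 gene that covered 50% or more of its span on its own strand, which gave a name to 57708 of 63759 transcripts (90.5%). Following the study's methods, 0 RPKM was set to 0.001. The 1.5-fold at which the study classed genes as TGFB1 inducible in *Hmga2*+/+ MEF was applied here to rises and falls in every comparison. Depth was derived as the number of mapped reads at which low RPKM of transcripts under 600 bases give whole reads within 0.1 read, true of 100% of the values tested, and 3 reads on 1000 bases then make 0.0524 to 0.0534 RPKM. Reads from this depth gave exact Poisson intervals for levels and exact binomial intervals for ratios. The interval of a difference of 2 ratios used a normal approximation. With no replicates, no test was run. Groups came from the sample titles.

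Members and lists were chosen with earlier results of these data known. Genes named are the members, *Hmga2*, the TGFB1 targets *Ctgf* and *Smad7* (a further target is not reported here), listed pathway genes past 1.5-fold, direct partners, head-to-head neighbours and the 3 genes most like *Atm* and *Brca1*. Markers are named where a sum or a count turns on them, and *Herc2*, *Trrap*, *Brca2* and *Rnf169* were named after their values were seen. *Ctgf* is *Ccn2* in GENCODE vM21. Promoters came from RefSeq, and the alternatives changed the pseudocount, low-value filter, scaling, transcript and fold. Values were computed in Python 3.11.15 with scipy 1.17.1, numpy 2.4.6 and pandas 2.3.3 and plotted with matplotlib 3.10.9, and steps were tested on simulated data.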

Additional observations from a re-analysis of the deposited data

Results flagged for a closer look

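For 3 members the log2 ratio had opposite signs in the 2 genotypes or under the 2 treatments, and this difference was not tested, since each condition has 1 library. The log2 ratio of TGFB1 to Ctrl of *Atm* was 0.3353 in *Hmga2*+/+ and -0.0664 in *Hmga2*-/- MEF. That of *Prkdc* was 0.0481 in *Hmga2*+/+, with a counting interval that spans 0, and -0.4055 in *Hmga2*-/- MEF. *Rad50* had 0.1225 in *Hmga2*+/+ MEF against -0.0091 in *Hmga2*-/- MEF, with a counting interval that spans 0 for the latter, and its log2 ratio of *Hmga2*-/- to *Hmga2*+/+ was 0.0357 in Ctrl and -0.0959 with TGFB1. All of these are below 1.5-fold, and *Atm* and *Prkdc* belong to the class of long transcripts.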

How the results depend on the processing

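Of 300 values of single members under the alternatives, 273 stayed within their counting error of the reported value, 6 differed in sign and 8 in their side of the 1.5-fold threshold. Part of this was fixed in advance. For every member the transcript of longest exonic length was the reported one, so those values could not differ. The transcript of highest RPKM was also the reported one for *Atr*, *Prkdc*, *Mre11a*, *Nbn*, *Mdc1* and *Rnf8*. The count of members past 1.5-fold with TGFB1, 1 in each genotype as reported, was 0 in each with 1 RPKM added, with the transcript of highest RPKM and with a 2-fold threshold. With rescaled libraries the count between genotypes with TGFB1 was 1 in place of 0, and the median over the members with TGFB1 in *Hmga2*+/+ MEF was 0.023 in place of -0.014. The counts of other pathway genes, 6 in *Hmga2*+/+, 4 in *Hmga2*-/- and 1 between genotypes with TGFB1, were 1, 2 and 0 with 1 RPKM added, and 0, 0 and 0 at 2-fold, where fewer genes can pass by construction. The difference of responses of *Atm*, reported as -0.40, was -0.46 with rescaled libraries and -0.50 with its transcript of highest RPKM, and that of *Prkdc*, reported as -0.45, was -0.29 with 1 RPKM added, which understates ratios of low genes. Relative to genes of like exonic length, an alternative chosen after seeing the data, the difference was -0.28 for *Atm*, 0.012 for *Mdc1* and 0.10 for *Trp53bp1*. Beside these, the cause of a shift was not tested. No paired analysis was possible because each condition has 1 library and no result comes from a test. Counting error was small at this depth, and the absence of replicate cultures limits every comparison.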

Other observations

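Several members have more than 1 annotated transcript, and these overlap and share reads, so that their values are not independent. For *Rad50* the transcript of 3107 exonic bases at the 5′ part of the gene was at 45.3, 49.4, 48.2 and 46.9 RPKM in *Hmga2*+/+ Ctrl, *Hmga2*+/+ TGFB1, *Hmga2*-/- Ctrl and *Hmga2*-/- TGFB1, whereas the transcript of 1983 bases at the 3′ end was at 7.79, 8.04, 7.30 and 7.21 RPKM. The transcripts of *Trp53bp1* also differed in level. A transcript of 3629 bases that shares the 5′ end of the reported one was at 12.8, 8.89, 12.04 and 8.07 RPKM in the same order. The 3′ transcript of 2547 bases was at 4.88, 2.72, 4.00 and 2.63 RPKM. A further transcript at the 5′ end, with 3082 of its 4096 bases counted as exonic, was at 2.81, 1.73, 2.56 and 1.53 RPKM. These levels do not settle whether coverage fell from 5′ to 3′. The 1228-base transcript at the 5′ end of *Atm* was at 21.1, 27.9, 21.9 and 20.4 RPKM, and so kept the order in which the *Hmga2*+/+ TGFB1 library is highest and the *Hmga2*-/- TGFB1 library lowest.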
